A study of Homo sapiens with 6 samples.

Results

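The expression of 39 genes was followed in NB4 cells. Their products write methyl or acetyl groups on histones, belong to complexes that do so, or read acetylated histones through a bromodomain. The genes were chosen by symbol, from what their proteins do, with earlier results of these data known. All 39 were found under those symbols among the 23368 gene symbols of the count tables. Ordered by role, they comprise 6 genes of the core of Polycomb repressive complex 2 (PRC2), 3 H3K9 methyltransferases, 1 H3K79 methyltransferase, 9 genes of H3K4 methylation, 6 H3K36 or H4K20 methyltransferases, 3 arginine methyltransferases, 6 acetyltransferases and 5 bromodomain genes. NB4, an established cell line of human acute promyelocytic leukemia (APL), carries the PML/RARα fusion protein. The cells were grown in RPMI 1640 medium with fetal bovine serum and were either not treated (n.t., 3 libraries) or exposed for 24 h to 10 µM maltonis, a synthetic hydroxypyrone derived from maltol and dissolved in distilled water (3 libraries). The n.t. libraries carry no vehicle in their labels, and both groups come from 1 cell line at 1 dose and 1 time. The comparison asks how the RNA of the enzymes, complex subunits and readers behind the histone code differed after the exposure.

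Lysines of the histone H3 and H4 tails are methylated by SET domain enzymes, each with its own preferred residue, and the same tails are acetylated by the acetyltransferases. Methylation of H3K27 by PRC2 and of H3K9 is linked to silent chromatin, whereas H3K4 methylation, H3K36 methylation and acetylation accompany active promoters and gene bodies. Several of these genes, among them MEN1, DOT1L, EZH2, NSD1 and CREBBP, are known in acute leukemia as partners of fusion proteins, as sites of mutation or as drug targets.

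The 6 libraries held 18492154 to 38205483 counts, so that 3 counts correspond to 0.0828 to 0.16 CPM (counts brought to a common library size with TMM factors). The 10 listed promyelocyte markers were expressed in all 6 libraries, and 3 of them rose and 4 fell. Their summed level was 14500 to 17000 CPM in n.t. and 9030 to 9600 CPM in treated libraries. Most of that sum was MPO, so the sum does not describe the markers as a group. MPO, the myeloperoxidase of granules, fell from 14600 ± 1490 to 7430 ± 127 CPM, while CTSG, a granule protease, rose from 109 ± 5.34 to 553 ± 19.9 CPM (SD, n = 3). Of the markers of other cell types, 7 of 10 had no library above 1 CPM and 3, such as MS4A1, had no count. The summed level of the 10 other markers was 28.4 to 33.1 CPM in n.t. and 27.8 to 34.6 CPM in treated libraries, but the 3 above 1 CPM moved in opposite directions. EPCAM (17.1 ± 0.899 to 11.2 ± 1.41 CPM) and CD79A (2.28 ± 0.564 to 0.878 ± 0.0678 CPM) fell and PECAM1 (11.1 ± 3.15 to 18.7 ± 2.54 CPM) rose (SD, n = 3), with BH-adjusted p of 0.000862, 0.000627 and 0.00776 in edgeR. The part of these markers in the results was not tested. A code in the deposited library names sets replicate 1 of each group (code A) apart from replicates 2 and 3 (code B), and what it stands for is not stated. The n.t. replicate 3 stood apart in long genes. Among the 3160 genes with the longest transcripts, 48.0% were highest in it of the 3 n.t. libraries, against 15.2% among the 3162 with the shortest. All 13 members with the longest transcripts, from NSD1 to SETD1A, were highest in that library among the n.t. ones. Each of the 27 members that passed the test in all 6 libraries also passed it in the same direction without n.t. replicate 3. Since this is RNA from a bulk culture, a lower level in every cell and fewer cells with the transcript cannot be told apart.

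Across the 39 members, decreases outnumbered increases. Counts were compared with the quasi-likelihood test of edgeR, and p-values were adjusted after Benjamini and Hochberg (BH) over all genes tested, with a false discovery rate (FDR) under 0.01 as the threshold. In maltonis-treated cells 8 members were higher (20.5%) and 19 were lower (48.7%), while 12 did not pass. Of all 13209 genes tested, 64.0% passed in either direction, 31.9% higher and 32.1% lower. The share of members that passed in either direction, 69.2%, was near that of all genes. Each role holds 1 to 9 members, and the counts by role below were not tested against these shares. The members' median log2 fold change was −0.24, from −2.21 for MEN1 to 1.01 for KAT2B, beside a median of 0.01 over all genes tested. Requiring in addition a change beyond 2.5-fold, or 1.32 on the log2 scale, left 5 members (beside 20.3% of all genes in either direction), all lower, namely MEN1, SETD7, DPY30, PRMT5 and BRD3. That criterion left 10.4% of all genes lower and 9.95% higher. Scaling by total counts or by the upper quartile left 3 of the 5, since PRMT5 and BRD3 then lay just inside the 2.5-fold line. BRD3 also missed these criteria when n.t. replicate 2 (log2 fold change −1.30), n.t. replicate 3 (−1.12) or maltonis-treated replicate 1 (edgeR BH-adjusted p = 0.0134) was left out, and 4 members remained. In 28 of the 39 members (71.8%) the 3 libraries of one group all lay on one side of the other group, as they did in 76.6% of all genes. The 27 members that passed are among these 28. Their signs within code A and within code B were therefore bound to be the same. EZH2, DOT1L, SETD1B, EP300 and CREBBP, none of which passed, had opposite signs in the codes.

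**Figure D1:**
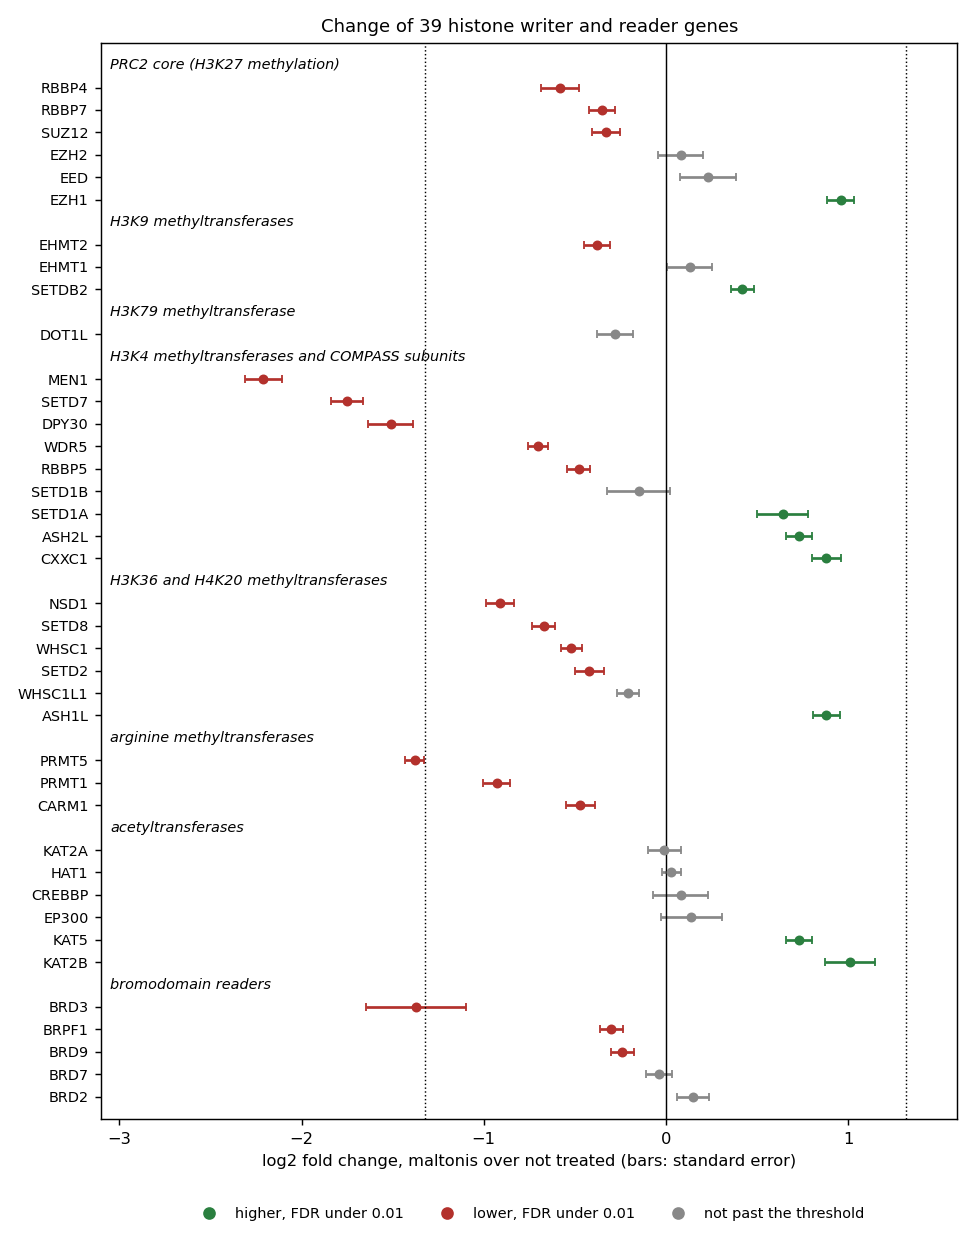
Log2 fold change (maltonis over n.t., horizontal axis) of the 39 genes by role, with bars for the standard error and dotted lines at a 2.5-fold change in either direction. Green points passed an FDR under 0.01 upwards (8 genes), red points downwards (19 genes) and grey points did not pass (12 genes), and only red points lie beyond a dotted line.

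In the PRC2 core, 1 catalytic subunit, EZH1, rose and the shared subunits RBBP4, RBBP7 and SUZ12 fell. EZH1, the alternative catalytic subunit that is typical of cells that do not divide, was at 27.6, 27.4 and 28.1 CPM in n.t. replicates 1, 2 and 3 and at 58.5, 52.8 and 50.7 CPM in maltonis-treated replicates 1, 2 and 3. All treated libraries lay above all n.t. ones. Its mean with maltonis was 1.95 times that without, 54.0 ± 4.03 against 27.7 ± 0.363 CPM (SD, n = 3). The log2 fold change was 0.96 ± 0.074 (standard error; edgeR, BH-adjusted p = 4.75e-06). The log2 difference was 1.08 within code A and 0.90 within code B. EZH2, the catalytic subunit of dividing cells, stood at 91.1, 129 and 128 CPM in n.t. cells and at 122, 121 and 125 CPM after maltonis. Its groups overlapped, since n.t. replicate 1 lay below and the other n.t. libraries above the treated ones, and its log2 fold change was 0.08 ± 0.122 (standard error; edgeR, BH-adjusted p = 0.571).

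RBBP4, a histone chaperone shared by PRC2 and deacetylase complexes, had the largest decrease in the core. It was at 118, 129 and 150 CPM in n.t. cells and at 79.3, 96.5 and 90.8 CPM in maltonis-treated cells, with no overlap. RBBP4 had a log2 fold change of −0.58 ± 0.104 (standard error; edgeR, BH-adjusted p = 0.000918) and the same within both name codes, −0.58. Its paralog RBBP7 fell from 303 ± 22.6 to 238 ± 11.9 CPM, and SUZ12, the scaffold of the complex, fell from 209 ± 15.6 to 166 ± 11.8 CPM (SD, n = 3). Their log2 fold changes were −0.35 and −0.33, and the call of SUZ12 was lost when libraries were scaled by total counts (log2 fold change −0.22, edgeR BH-adjusted p = 0.034). RBBP7 lost its call under the same scaling (edgeR BH-adjusted p = 0.014) and without n.t. replicate 2 (0.011). EED, which binds methylated H3K27, had overlapping groups and a log2 fold change of 0.23 that did not pass. Reads of the similar RBBP4 and RBBP7 transcripts may have been shared in counting, since how such reads were treated is not stated.

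The stretch before the EZH1 start is shown because EZH1 had the second largest rise among the members. RefSeq places its most upstream start on the minus strand, and the 250 bases before it lie at chr17:42745041-42745290 of GRCh38.p14. They are printed 5′ to 3′ with each CpG in capitals, and they hold 26 CpG at 67.6% GC.
EZH1: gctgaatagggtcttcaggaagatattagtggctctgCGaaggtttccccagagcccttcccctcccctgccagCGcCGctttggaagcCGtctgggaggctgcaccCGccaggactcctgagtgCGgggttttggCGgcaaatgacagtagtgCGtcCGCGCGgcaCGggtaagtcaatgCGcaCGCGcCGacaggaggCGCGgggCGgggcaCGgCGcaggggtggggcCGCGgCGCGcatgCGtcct

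Among the H3K9 methyltransferases, 1 of 3 rose and 1 fell, beside 31.9% higher and 32.1% lower of all genes tested. SETDB2, a SET domain protein related to the H3K9 trimethylase SETDB1, was at 50.3, 51.1 and 51.0 CPM in n.t. cells and at 63.9, 69.4 and 70.7 CPM after maltonis. The n.t. libraries were nearly alike, and every treated library lay above them. On the log2 scale SETDB2 rose by 0.42 ± 0.0634 (standard error; edgeR, BH-adjusted p = 0.000313), 0.34 within code A and 0.46 within code B. EHMT2 (G9a), which mono- and dimethylates H3K9, was at 245, 230 and 220 CPM in n.t. cells and at 192, 169 and 171 CPM in treated cells. No treated library reached an n.t. one, and the log2 fold change was −0.38 ± 0.0709 (standard error; edgeR, BH-adjusted p = 0.00106), −0.35 within code A and −0.40 within code B. Its partner EHMT1 (GLP), with which it forms a heterodimer, had overlapping groups at 88.2 ± 16.4 and 97.0 ± 4.92 CPM (SD, n = 3). DOT1L, the H3K79 methyltransferase, did not pass, with a log2 fold change of −0.28 (edgeR BH-adjusted p = 0.0295). It was at 116, 143 and 151 CPM in n.t. cells and at 118, 112 and 107 CPM in treated cells, so that the difference was 0.03 within code A and −0.42 within code B. It passed when the name code was a term of the fit and when n.t. replicate 1 was left out (log2 fold change −0.40, edgeR BH-adjusted p = 0.00042).

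The genes of H3K4 methylation included the 3 largest decreases among the members, and 3 members of the same class rose. MEN1 encodes menin, which tethers the KMT2A and KMT2B complexes to chromatin. It was at 60.8, 64.0 and 62.2 CPM in n.t. cells and at 15.6, 13.2 and 11.8 CPM after maltonis. The groups lay far apart, and the spread within each was small beside the gap. Its mean without treatment was 4.61 times that with maltonis, 62.3 ± 1.61 against 13.5 ± 1.94 CPM (SD, n = 3), and the log2 fold change was −2.21 with a standard error of 0.102 (edgeR, BH-adjusted p = 2.73e-07). It was −1.96 within code A and −2.34 within code B. SETD7, a monomethylase of H3K4 and of many other proteins, was at 64.0, 74.7 and 78.6 CPM in n.t. cells and at 20.7, 21.9 and 21.8 CPM after maltonis. The treated libraries were close together and all below the n.t. ones, with a mean lower by a factor of 3.37. For SETD7 the log2 fold change was −1.75 ± 0.0892 (standard error; edgeR, BH-adjusted p = 4.45e-07), −1.63 within code A and −1.81 within code B.

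DPY30 belongs to the WDR5, RBBP5, ASH2L and DPY30 module that all KMT2 and SETD1 complexes share. It was at 33.3, 43.8 and 43.5 CPM in n.t. cells and at 13.2, 13.7 and 15.5 CPM in treated cells. The groups did not overlap, and its log2 fold change was −1.51 ± 0.123 (standard error; edgeR, BH-adjusted p = 6.44e-06), −1.34 within code A and −1.59 within code B. The 4 genes of this module did not move together. WDR5, its scaffold, fell from 138 ± 4.02 to 84.7 ± 1.66 CPM (log2 fold change −0.70) and RBBP5 fell from 62.6 ± 1.00 to 45.0 ± 1.64 CPM (log2 fold change −0.48), whereas ASH2L rose from 42.0 ± 1.37 to 69.7 ± 4.40 CPM (log2 fold change 0.73; all SD, n = 3). These directions were kept under every scaling tried.

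CXXC1, which brings the SETD1 complexes to unmethylated CpG, had the largest rise in the class. Its n.t. libraries were at 112, 103 and 96.4 CPM and its treated ones at 208, 178 and 188 CPM, without overlap. The log2 fold change was 0.88 ± 0.081 (standard error; edgeR, BH-adjusted p = 1.41e-05), 0.89 within code A and 0.88 within code B. The catalytic subunit SETD1A was at 37.5 ± 3.27 CPM without and 58.6 ± 12.4 CPM with maltonis (SD, n = 3), and its log2 fold change was 0.64. Within code A the difference was 0.99 and within code B 0.44, and without n.t. replicate 2 its BH-adjusted p in edgeR was 0.0165, so that the call was lost. SETD1B, the catalytic paralog of SETD1A, had overlapping groups at 32.8 ± 7.82 and 29.6 ± 4.42 CPM (SD, n = 3) and did not pass.

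The upstream stretches of MEN1 and SETD7 are given as those of the members with the largest decreases. The 250 bases before the MEN1 start are at chr11:64810687-64810936 and those before the SETD7 start at chr4:139556220-139556469, both on the minus strand of GRCh38.p14 (RefSeq). Capitals mark CpG, of which there are 15 and 16.
MEN1: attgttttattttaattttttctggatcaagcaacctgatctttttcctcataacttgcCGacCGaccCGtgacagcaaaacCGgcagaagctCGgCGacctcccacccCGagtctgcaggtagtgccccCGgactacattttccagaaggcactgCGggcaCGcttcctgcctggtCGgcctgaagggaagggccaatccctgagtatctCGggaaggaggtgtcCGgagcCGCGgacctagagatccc
SETD7: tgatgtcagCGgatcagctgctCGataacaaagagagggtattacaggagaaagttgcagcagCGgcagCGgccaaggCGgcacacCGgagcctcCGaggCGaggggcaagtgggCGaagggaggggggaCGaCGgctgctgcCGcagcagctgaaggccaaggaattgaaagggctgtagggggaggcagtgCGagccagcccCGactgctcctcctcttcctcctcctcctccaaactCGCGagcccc

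**Figure D2:**
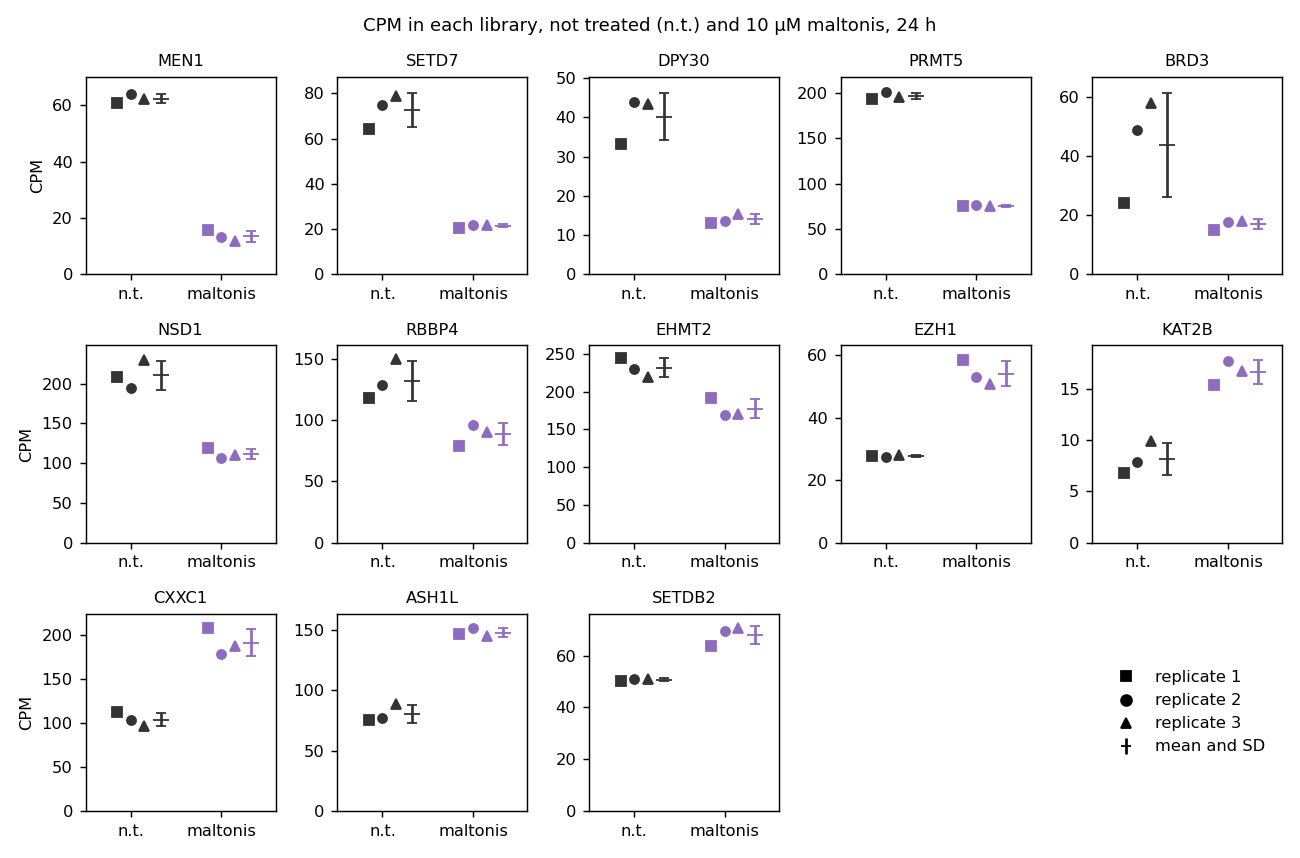
CPM (vertical axis, from 0) of 13 members in each n.t. (black) and maltonis-treated (purple) library, with squares, circles and triangles for replicates 1, 2 and 3 and a cross for the mean and SD of the 3. The groups do not overlap in any panel, and the gap is smallest beside the spread for BRD3, whose n.t. replicate 1 was at 24.0 CPM and whose highest treated library was at 18.1 CPM.

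Of the 6 methyltransferases of H3K36 and H4K20, 4 fell and 1 rose, beside 32.1% lower and 31.9% higher of all genes tested. NSD1, a dimethylase of H3K36, was at 208, 194 and 230 CPM in n.t. cells and at 119, 107 and 110 CPM after maltonis. Every treated library was below every n.t. one, and the mean without treatment was 1.88 times that with maltonis. NSD1 had a log2 fold change of −0.91 ± 0.0765 (standard error; edgeR, BH-adjusted p = 8.06e-06), −0.81 within code A and −0.96 within code B. SETD8, the H4K20 monomethylase, fell from 116 ± 5.19 to 73.0 ± 3.29 CPM, WHSC1 (NSD2) fell from 541 ± 21.8 to 378 ± 9.49 CPM, and SETD2, which trimethylates H3K36, fell from 117 ± 11.1 to 87.5 ± 4.97 CPM (SD, n = 3). Their log2 fold changes were −0.67, −0.52 and −0.42, and SETD2 missed the threshold under total count scaling (edgeR BH-adjusted p = 0.0108). WHSC1L1 (NSD3) was at 86.0 ± 3.82 and 74.3 ± 1.85 CPM (SD, n = 3), and its groups did not overlap although it did not pass (log2 fold change −0.21, edgeR BH-adjusted p = 0.0114).

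ASH1L, another dimethylase of H3K36, moved the opposite way to NSD1. Its n.t. libraries were at 75.3, 76.9 and 88.8 CPM and its treated ones at 147, 152 and 145 CPM. All treated libraries were higher, with a mean 1.84 times that of n.t. cells. On the log2 scale ASH1L rose by 0.88 ± 0.0745 (standard error; edgeR, BH-adjusted p = 8.57e-06), 0.96 within code A and 0.84 within code B.

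All 3 arginine methyltransferases among the members fell, as did 32.1% of all genes tested. PRMT5, which makes symmetric dimethylarginine, was at 194, 201 and 196 CPM in n.t. cells and at 75.2, 77.1 and 75.2 CPM after maltonis. Libraries within each group were almost alike, and the groups were far apart. Its log2 fold change of −1.38 had the smallest standard error of the members, 0.0525 (edgeR, BH-adjusted p = 1.14e-07), and was −1.37 within code A and −1.38 within code B. Scaling by total counts or by the upper quartile put it at −1.26 and −1.29. PRMT1, the main asymmetric arginine methyltransferase, fell from 468 ± 41.5 to 246 ± 6.68 CPM, and CARM1 (PRMT4), a coactivator of nuclear receptors, fell from 72.2 ± 5.54 to 52.1 ± 3.49 CPM (SD, n = 3). Their log2 fold changes were −0.93 and −0.47.

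The PRMT5 upstream stretch is given because PRMT5 passed both criteria with all 6 libraries. It covers 250 bases at chr14:22929377-22929626 on the minus strand of GRCh38.p14 (RefSeq), with 14 CpG in capitals.
PRMT5: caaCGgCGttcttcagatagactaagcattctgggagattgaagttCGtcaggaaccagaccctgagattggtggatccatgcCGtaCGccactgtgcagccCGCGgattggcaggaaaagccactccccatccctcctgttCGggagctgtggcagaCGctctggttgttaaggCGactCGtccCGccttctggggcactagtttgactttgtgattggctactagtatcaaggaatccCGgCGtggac

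Among the acetyltransferases, KAT2B and KAT5 rose and none of the 6 fell, beside 31.9% higher and 32.1% lower of all genes tested. KAT2B (PCAF), the member with the lowest level per length in n.t. cells, was at 6.82, 7.84 and 9.89 CPM in n.t. cells and at 15.4, 17.7 and 16.8 CPM after maltonis. The groups did not overlap, and the mean with treatment was 2.03 times that without. The log2 fold change was 1.01 ± 0.135 (standard error; edgeR, BH-adjusted p = 0.000148), 1.18 within code A and 0.97 within code B. KAT5 (Tip60), the catalytic subunit of the NuA4 complex, which also takes part in the response to DNA breaks, rose by 0.73 on the log2 scale, with means of 55.6 ± 4.48 CPM without and 92.2 ± 3.02 CPM with maltonis (SD, n = 3). KAT2A (GCN5), the paralog of KAT2B, was at 84.3 ± 7.87 CPM without and 83.7 ± 7.78 CPM with treatment, and HAT1, which acetylates newly made histone H4, was at 170 ± 5.17 and 173 ± 4.63 CPM (SD, n = 3).

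The paralogous coactivators EP300 and CREBBP did not pass, and in both the groups overlapped. EP300 was at 67.3, 68.3 and 103 CPM in n.t. cells and at 97.8, 90.2 and 75.8 CPM in treated cells. CREBBP was at 41.9, 45.7 and 64.8 CPM in n.t. cells and at 57.7, 54.4 and 49.4 CPM in treated cells. In both genes n.t. replicate 3 was the highest of all 6 libraries, and both are among the members with long transcripts. The log2 differences were 0.54 and 0.46 within code A and −0.02 and −0.07 within code B, for EP300 and CREBBP in that order.

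The KAT2B upstream stretch, from the member with the largest rise, covers 250 bases at chr3:20040196-20040445 on the plus strand of GRCh38.p14 (RefSeq). It holds 33 CpG, in capitals, at 80.8% GC.
KAT2B: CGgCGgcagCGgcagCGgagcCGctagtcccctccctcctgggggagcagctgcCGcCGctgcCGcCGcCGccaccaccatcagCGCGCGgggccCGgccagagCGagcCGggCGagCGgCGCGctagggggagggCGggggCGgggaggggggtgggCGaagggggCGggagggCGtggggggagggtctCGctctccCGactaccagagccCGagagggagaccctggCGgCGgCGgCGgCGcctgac

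Of the bromodomain readers 3 of 5 fell, beside 32.1% of all genes tested. BRD3, which like BRD2 carries paired bromodomains that bind acetylated histones, was at 24.0, 48.6 and 58.0 CPM in n.t. cells and at 15.1, 17.6 and 18.1 CPM after maltonis. All treated libraries were lower, but n.t. replicate 1 lay far below the other n.t. libraries. The log2 fold change was −1.37 with the largest standard error of the members, 0.274 (edgeR, BH-adjusted p = 0.00169). It was −0.67 within code A and −1.57 within code B, the widest gap between the codes among the members that passed, 0.90, where the median was 0.12. Without maltonis-treated replicate 1 the BH-adjusted p in edgeR was 0.0134, and the call was lost. BRD9, a subunit of the non-canonical BAF complex, fell from 96.0 ± 2.98 to 81.3 ± 4.11 CPM, and BRPF1, a scaffold of the KAT6A and KAT6B complexes, fell from 114 ± 1.36 to 93.1 ± 5.99 CPM (SD, n = 3).

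BRD9 and BRPF1 had log2 fold changes of −0.24 and −0.30, and these small changes did not pass under total count scaling, at BH-adjusted p of 0.116 and 0.0369 in edgeR. BRD9 also lost its call without n.t. replicate 2 (edgeR BH-adjusted p = 0.0227) or without maltonis-treated replicate 2 (0.0226) or 3 (0.0159), and BRPF1 without maltonis-treated replicate 2 (0.0114). BRD2 was at 338 ± 20.1 and 376 ± 42.9 CPM, and BRD7, a subunit of the PBAF complex, was at 34.9 ± 1.29 and 33.9 ± 1.77 CPM (SD, n = 3), and neither passed. The 250 bases before the BRD3 start, shown as those of the one reader past both criteria with all 6 libraries, are at chr9:134068027-134068276 on the minus strand of GRCh38.p14 (RefSeq) and hold 48 CpG, in capitals, at 86.8% GC.
BRD3: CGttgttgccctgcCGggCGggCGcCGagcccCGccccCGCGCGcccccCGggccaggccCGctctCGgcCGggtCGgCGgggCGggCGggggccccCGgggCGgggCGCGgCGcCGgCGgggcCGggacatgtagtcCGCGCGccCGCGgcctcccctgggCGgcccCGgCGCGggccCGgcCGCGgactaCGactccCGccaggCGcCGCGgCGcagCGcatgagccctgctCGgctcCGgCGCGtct

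Related genes were also compared within each library, as the log2 ratio of their CPM, which does not depend on how libraries are scaled against each other. In 8 of 10 pairs, chosen with earlier results known, the 3 ratios of one group all lay on one side of those of the other. How often other gene pairs do so was not computed. Of all single genes tested, 76.6% had groups that did not overlap. The EZH2 over EZH1 ratio was 1.72, 2.24 and 2.18 on the log2 scale in n.t. cells and 1.06, 1.20 and 1.30 after maltonis, a difference of −0.86. KAT2A over KAT2B differed by −1.05, from 3.38 ± 0.376 to 2.33 ± 0.225, and EHMT2 over EHMT1 by −0.54, from 1.41 ± 0.36 to 0.87 ± 0.176 (log2 ratio, SD, n = 3). In the other direction, BRD2 over BRD3 differed by 1.42, SETD1A over SETD1B by 0.76 and WHSC1 over NSD1 by 0.39. RBBP4 over RBBP7 and WHSC1 over WHSC1L1 differed by −0.23 and −0.31. Each of these 8 pairs reached p = 0.1 in a two-sided exact permutation test, the smallest that 3 against 3 libraries allow, or 0.125 after Benjamini-Hochberg adjustment over the 10 pairs. This test therefore cannot place any pair under 0.05. EP300 over CREBBP was at 0.64 ± 0.0569 and 0.70 ± 0.0752 (log2 ratio, SD, n = 3; exact permutation p = 0.4, adjusted 0.4), and BRD7 over BRD9 differed by 0.20 (exact permutation p = 0.3, adjusted 0.333), both with overlapping groups.

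**Figure D3:**
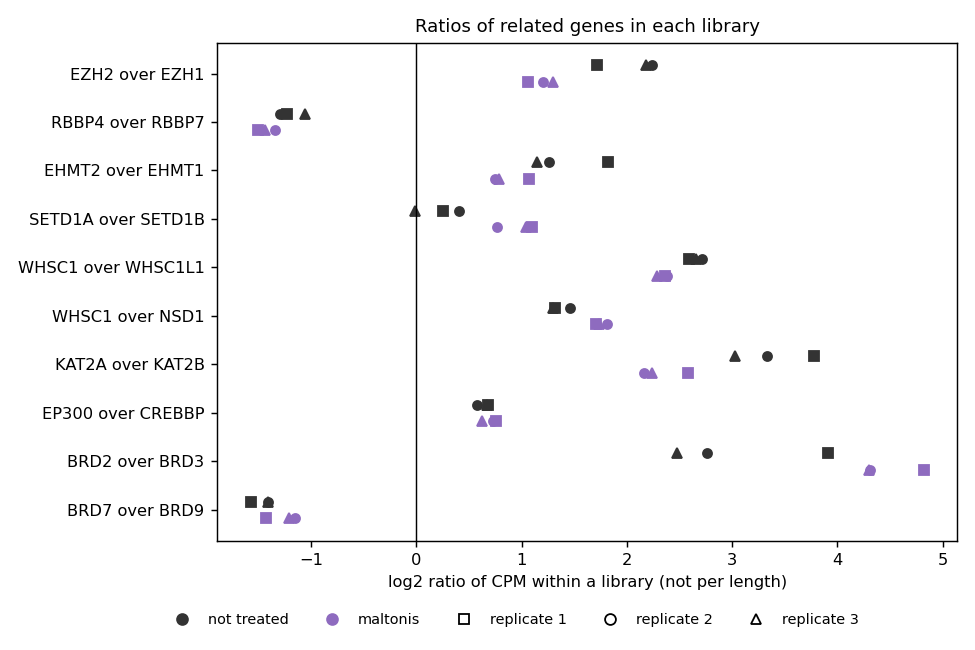
Log2 ratio of the CPM of a pair of related genes within a library (horizontal axis, not corrected for length), for 10 pairs in n.t. (black) and maltonis-treated (purple) libraries, with squares, circles and triangles for replicates 1, 2 and 3. The groups part in 8 pairs, to the left after maltonis in EZH2 over EZH1 and KAT2A over KAT2B and to the right in BRD2 over BRD3, and overlap in EP300 over CREBBP and BRD7 over BRD9.

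Levels were compared between genes per length, as RPKM, which divides CPM by the gene's annotated exonic length in kilobases. In n.t. cells they ran from 1.45 ± 0.278 RPKM for KAT2B to 97.6 ± 8.65 RPKM for PRMT1 (SD, n = 3), and 24 of the 39 members were above 10 RPKM. PRMT5 followed at 56.8 ± 1.09, BRD2 at 46.1 ± 2.73, RBBP7 at 40.9 ± 3.05 and WDR5 at 37.9 ± 1.11 RPKM (SD, n = 3). BRD2 and RBBP7 overlapped within their SDs, as did RBBP7 and WDR5, and also SUZ12 at 31.9 ± 2.38 and EHMT2 at 31.8 ± 1.72 RPKM. At the low end, BRD7, EHMT1, EZH1 and SETD1B lay between 3.95 and 4.11 RPKM and could not be ordered by this length. After maltonis PRMT1 remained first at 51.3 ± 1.39 RPKM, beside BRD2 at 51.2 ± 5.85 RPKM, from which it no longer stood apart. CXXC1 went from rank 12 to rank 3 at 44.3 ± 3.53 RPKM, PRMT5 from rank 2 to rank 12 at 21.9 ± 0.316 RPKM and MEN1 from rank 17 to rank 36 at 3.19 ± 0.456 RPKM. SETD7 was the lowest of the 39 after maltonis, at 1.54 ± 0.0473 RPKM. With the length of the longest transcript in place of all exons, PRMT1 and PRMT5 were still first and KAT2B last in n.t. cells. The middle and low ranks depended on the length used. EHMT1 went from rank 35 to rank 27 at 11.2 RPKM, while BRD7, EZH1 and SETD1B were at 6.49, 5.99 and 4.01 RPKM. Which members lay above 10 RPKM also depended on it.

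**Figure D4:**
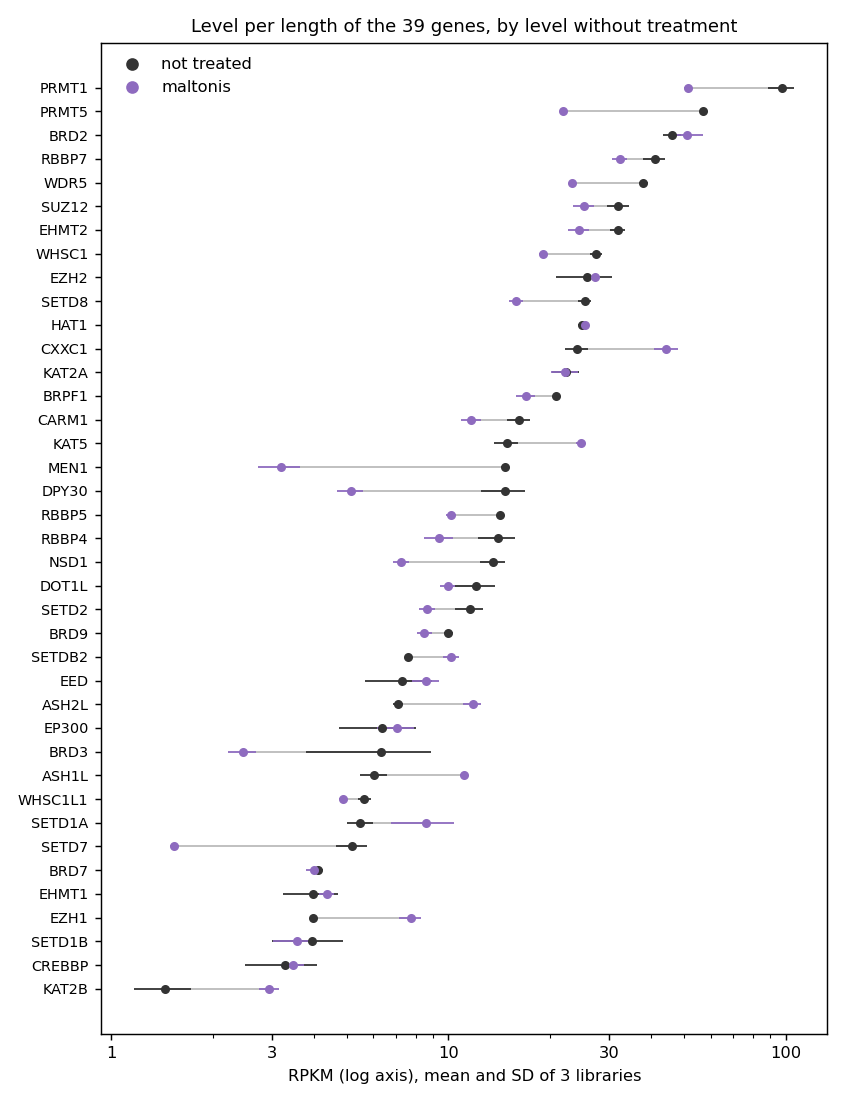
Level per length (RPKM, logarithmic horizontal axis) of the 39 genes in n.t. (black) and maltonis-treated (purple) cells, ordered by the n.t. level, with points at the mean and bars for the SD of 3 libraries. PRMT1 is at the top with 97.6 RPKM and KAT2B at the bottom with 1.45 RPKM in n.t. cells, and the longest grey lines are those of MEN1, SETD7 and DPY30.

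The promoters of the members were read for what the selection had not used. RefSeq windows from 250 bases before to 50 after the start matched 34 of the 39 members, the others being DOT1L, SETD1B, ASH2L, DPY30 and WHSC1L1, and 12 members had more than 1 listed start, of which the most upstream was used. The members' windows held a median of 30 CpG, from 6 in WDR5 to 63 in WHSC1, against 26 in the 9131 windows of genes tested and 13 in all 27305. Members called higher and lower had medians of 30 and 28. The E-box CACGTG, which MYC and related factors bind and which reads the same on both strands, was in 4 of 34 windows (11.8%), against 7.41% of all windows and 10.2% of those of genes tested. Its holders were RBBP4, EHMT2 and NSD1, which fell, and KAT5, which rose. The ETS motif CCGGAAG, searched on both strands, was also in 4 of 34, against 10.6% of all windows and 19.4% of those of genes tested. An interferon response (ISRE) core and the NRF1 motif, searched on both strands, were in 0 of 34 windows, against 3.66% and 1.37% of all. A match describes the letters only and says nothing on binding in these cells. The E-box stretches are shown so that their flanks can be compared, 30 bases each with the motif in capitals, at chr1:32650959-32650988 (plus strand) for RBBP4, chr6:31897711-31897740 (minus) for EHMT2, chr5:177131759-177131788 (plus) for NSD1 and chr11:65712005-65712034 (plus) for KAT5, all GRCh38.p14.
RBBP4: ccaaacctctctCACGTGaccctgaccggg
EHMT2: ccctccctcgccCACGTGacccggggcggc
NSD1: aagaatagtagtCACGTGgccctcgagggc
KAT5: cccggtgggcgtCACGTGacggactcagta

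Another 138 genes of the same complexes and families, listed by what their proteins do and with earlier results known, were read from the same fit. Of these, 133 passed the filter on low counts, and 38 were higher and 39 lower at an FDR under 0.01 (57.9%, beside 64.0% of all genes). Their median log2 fold change was 0.03, where that of the 39 members was −0.24. By class, 42.9% to 75.0% of the related genes passed in either direction, so the class counts below lie on both sides of the share of all genes. Among PRC2 accessory and Polycomb repressive complex 1 genes, 6 rose and 8 fell of 21. PHF1, a Polycomb-like subunit that binds H3K36 methylation, rose from 34.1 ± 6.65 to 95.3 ± 12.4 CPM, and CBX6, a chromodomain reader of H3K27 methylation, fell from 67.5 ± 5.55 to 7.26 ± 1.00 CPM (SD, n = 3). Their log2 fold changes were 1.49 and −3.23, and CBX6 had the largest decrease of all member and related genes tested. Among other arginine methyltransferases and partners, 1 rose and 3 fell of 7. PRMT6, which methylates H3R2, fell from 42.6 ± 3.10 to 5.05 ± 0.144 CPM and PRMT7 fell from 86.7 ± 5.46 to 19.1 ± 0.696 CPM (SD, n = 3), with log2 fold changes of −3.08 and −2.18. COPRS, a partner of PRMT5, had a log2 fold change of −1.43.

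Among the KMT2 enzymes that the shared module serves, KMT2A was lower (log2 fold change −0.94) and KMT2B was higher (0.69). KMT2C and KMT2D did not pass at 0.03 and 0.16. Counts of KMT2A to KMT2D stood under the older symbols MLL, MLL4, MLL3 and MLL2, in that order. No gene length was matched to MLL4 or MLL2, and which gene each stands for was not checked. KMT2A was at 123, 112 and 175 CPM in n.t. cells and at 71.0, 78.4 and 65.1 CPM in treated cells, without overlap and with n.t. replicate 3 the highest. The class of other H3K4 methyltransferases and COMPASS partners had 3 higher and 3 lower of 14, and that of other SET domain and H3K79 complex genes had 3 higher and 6 lower of 16, with SETMAR, a histone methyltransferase fused to a transposase, at −1.89. Of 12 other acetyltransferases, 4 rose and 5 fell. KAT6A fell by 0.73 on the log2 scale, KAT7 and KAT8 rose by 0.31 and 0.46, and KAT6B at 0.18 did not pass. Of 36 further subunits of acetyltransferase complexes, 11 rose and 7 fell, the largest decrease being that of VPS72 (−1.57), a histone H2A.Z chaperone. Of 27 other bromodomain genes, 10 rose and 7 fell. SP140 and SP110, nuclear body proteins of immune cells, rose with log2 fold changes of 2.87 and 1.70, SP140 from 0.903 ± 0.256 to 6.35 ± 0.283 CPM (SD, n = 3), and CECR2 was lower at −2.00, from a level of 1.58 ± 0.127 CPM.

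**Figure D5:**
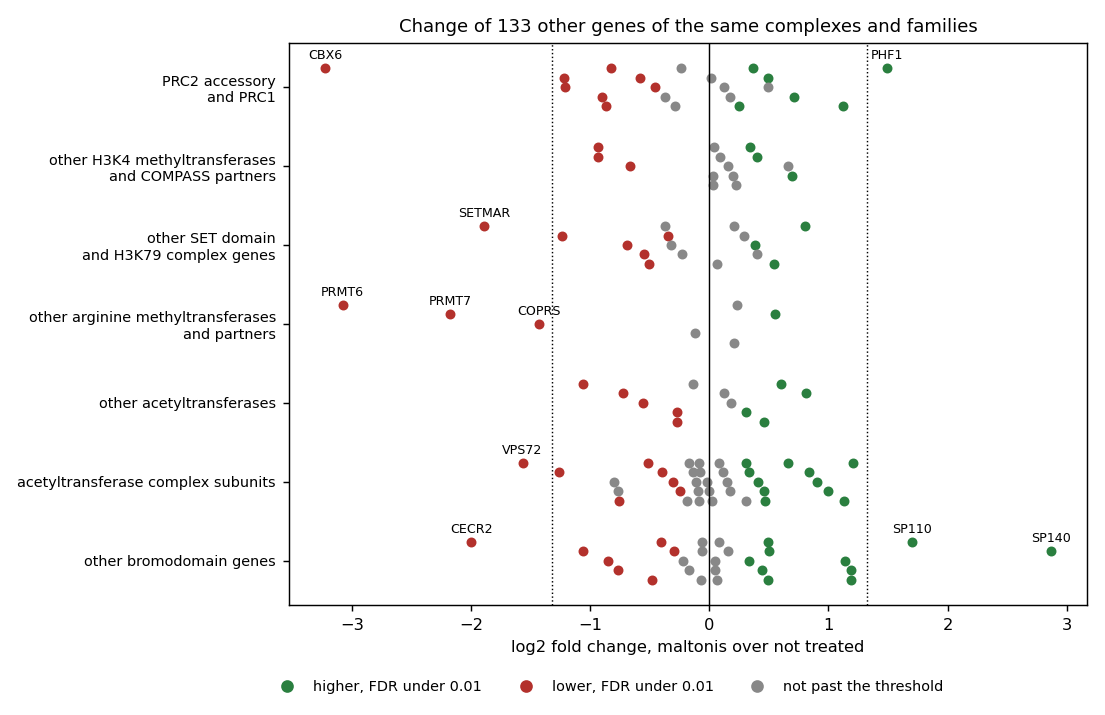
Log2 fold change (maltonis over n.t., horizontal axis) of 133 other genes of the same complexes and families, 1 point a gene, in 7 classes, with dotted lines at a 2.5-fold change and vertical offsets only for legibility. Of the 10 genes past both criteria, which are named, 3 lie to the right and 7 to the left, from CBX6 at −3.23 to SP140 at 2.87.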

How the data were processed

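Total RNA of NB4 cells was depleted of ribosomal RNA and made into stranded libraries, with 3 biological replicates a group as the study states. The deposited values are whole-number read counts per gene symbol, not normalized, made by the authors with HTSeq, and the submitters' processing notes name TopHat, Bowtie2 and the build hg19, with no versions. Whether counting used the strand is not given in the sources used here, so genes that overlap an antisense partner and close paralogs are uncertain.

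From these counts, TMM factors (trimmed mean of M-values) and library-scaled counts (CPM) were computed, filterByExpr left 13209 genes, and these were tested by quasi-likelihood in edgeR 4.0.16 (R 4.3.3), with treatment as the only term over all 6 libraries and the adjustment of Benjamini and Hochberg. The standard errors were derived from that test, as the size of the log2 fold change over the square root of its F statistic. Members were called at an FDR under 0.01, and as a second rule at a fold change beyond 2.5. The members, the related genes and the pairs were chosen with earlier results of these data known. Values of every library are given for members past both rules and, in each role, for the called members with the largest rise and fall. Related genes are named when past both rules or as the sister enzymes of a member (KMT2A to KMT2D, KAT6A, KAT6B, KAT7 and KAT8, while 1 gene is not reported here). Ratios of pairs were compared with a two-sided exact permutation test (scipy 1.17.1). RPKM used GENCODE lengths on GRCh38, found for 20195 symbols directly and 1526 by a synonym of 23368. Promoter sequences are those of RefSeq on GRCh38.p14, not of the build of the counts. The floor is 3 counts and covers counting error only. Replicate libraries differed by more than sampling noise (chi-square per degree of freedom 4.15 to 33.1), so each counted as 1 sample. The scripts were tested on simulated data in which only a small part of the genes changed. Such data do not check the scaling or the error rate where most genes move, as they did here. Alternatives covered the scaling, the test (edgeR's likelihood ratio test and DESeq2 1.42.0), the low-count filter, the FDR threshold, the name code, the replicate number, each library left out and the gene length. Which n.t. library was highest by transcript length was looked at after the values had been seen. Histone mass spectrometry and chromatin data of the study were not analysed here.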

Additional observations from a re-analysis of the deposited data

How the results depend on the processing

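All 27 called members kept their direction under every alternative. Their groups did not overlap, so leaving out libraries or taking a single name code could hardly turn a sign. The smallest called change, −0.24 for BRD9, was also larger in size than the largest shift by scaling, 0.12. Total count scaling, which shifted the median of all genes by 0.12 on the log2 scale, left 3 members lower past both criteria and a member median of −0.12, and upper quartile scaling also left 3, in place of 5, and 4 to 5 remained with each library left out. The median of the related genes, 0.03, was 0.15 with total counts, 0.12 with the upper quartile and −0.00 in name code B alone, and −0.04 to 0.04 with each library left out. Calls were lost under total counts for SUZ12, RBBP7, SETD2, BRD9 and BRPF1, under the upper quartile for SUZ12, BRD9 and BRPF1, without n.t. replicate 2 for RBBP7, SETD1A and BRD9, without maltonis-treated replicate 1 for BRD3, without maltonis-treated replicate 2 for BRD9 and BRPF1 and without maltonis-treated replicate 3 for BRD9. DOT1L and WHSC1L1 passed with the name code as a term and in code B alone, DOT1L also without n.t. replicate 1, and WHSC1L1 also with DESeq2's Wald test.

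Among the members and named related genes, signs turned only where the gene had not passed. With total counts and the upper quartile, KAT2A came to 0.11 and 0.08 and BRD7 to 0.08 and 0.05 on the log2 scale. In code B alone, EZH2 came to −0.07, EP300 to −0.05, CREBBP to −0.09 and KMT2C to −0.06. Leaving out each library gave EZH2 −0.08 to 0.16, EHMT1 −0.02 to 0.22, SETD1B −0.30 to 0.05, KAT2A −0.11 to 0.05, CREBBP −0.05 to 0.29, HAT1 −0.02 to 0.04, KMT2C −0.08 to 0.24 and KMT2D −0.05 to 0.55. The cause was not tested.

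With the replicate number as a block, 8 members were higher and 20 lower, the addition being WHSC1L1, with 5 lower past both criteria and a median of −0.24. Of the related genes 42 were then higher and 46 lower. Under the block the difference of each pair is the same by construction, and the smallest p of the paired exact permutation test is 0.25. Same-numbered libraries deviated together with r = 0.301, 0.0852 and 0.161 for replicates 1, 2 and 3 across genes, and n.t. replicate 2 went better with maltonis-treated replicate 3 (0.123) than with its own number, so the numbers were not taken as pairs. By name code, all 5 correlations between n.t. and treated libraries of the same code were positive (0.0852 to 0.301). All 4 between codes were negative (−0.232 to −0.162). Deviations from a group mean cancel within the group, so these signs are bound to one another and are not separate observations. With 3 libraries a group, calls of changes as small as those of BRD9 and BRPF1 depended on the scaling and on single libraries.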

Other observations

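The level of long transcripts differed between n.t. libraries of the same group, a pattern noticed in EP300 and CREBBP and then looked up over all genes. Of the 12641 tested genes with an annotated length, n.t. replicate 3 was the highest of the 3 n.t. libraries in 28.3%. From the shortest to the longest class of transcript length the share was 15.2%, 19.6%, 30.3% and 48.0%, and n.t. replicate 2, which has the same name code, went from 32.6% to 15.5%. N.t. replicate 1 was the highest in 46.3% of these genes, from 52.2% in the shortest class to 36.5% in the longest. Counts of n.t. replicate 1 also differed more from n.t. replicates 2 and 3 (chi-square per degree of freedom 21.9 and 33.1) than those did from each other (10.8). In 11 of the 39 members n.t. replicate 3 lay above all 5 other libraries (28.2%, beside 14.3% of all genes). These 11 all fall in the class with the longest transcripts, where the share over all genes was 27.8%. Among them are NSD1, whose longest annotated transcript has 12892 bases, CREBBP with 10803 and EP300 with 9587. For a gene that fell with maltonis, such as NSD1, lying above the treated libraries is not particular to n.t. replicate 3. The members' median length was 4736 bases, beside 3586 in all genes with a length. DPY30, PRMT1 and KAT5, the members with the shortest transcripts at 1519, 1686 and 2296 bases, were highest in n.t. replicates 2, 1 and 1. Leaving out n.t. replicate 3 moved BRD3 to −1.12 on the log2 scale, where it passed the FDR threshold but not the 2.5-fold line. What sets the library apart was not tested.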
